A study of Mus musculus with 9 samples.

Results

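The levels of 10 transcription factors of blood stem and progenitor cells were followed in mouse bone marrow cells carrying a leukemia fusion gene: Myb, Gata2, Gata1, Lmo2, Lyl1, Tal1, Runx1, Gfi1, Ikzf1 and Sox4. They were chosen by gene symbol, with earlier results of these data known, and all 10 were among the 17266 genes of the table and passed the filter on low values. The cells were lineage-negative bone marrow of female C57B/6 mice aged 6 weeks, untreated before marrow was taken. They were infected with the retrovirus MigR1-IRES-GFP as an empty vector, with ETV6-NCOA2 or with KAT6A-NCOA2, grown in RPMI with the cytokines IL-3, IL-6 and SCF over 5 days before a sort for GFP+ cells. Each of the 3 groups had 3 libraries of polyadenylated RNA. All groups share the virus, the cytokines and the sort, and a retroviral vector sets the level of the fusion, not the promoter of its own gene. The labels do not say whether replicates came from separate mice, infections or cultures, so the p-values below measure a spread between libraries that may be technical.

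These factors work together and against each other. Tal1 and its relative Lyl1 are basic helix-loop-helix factors that pair with E proteins. Lmo2 is the bridge that joins them to a GATA factor on DNA, in a complex that also holds Ldb1. Gata2 dominates in stem cells, early progenitors and mast cells, and Gata1 takes its place as erythroid cells and megakaryocytes mature. Myb keeps progenitors dividing, Runx1 is needed to form the first blood stem cells, Gfi1 is a repressor that favours neutrophils, Ikzf1 opens the lymphoid path and Sox4 is a progenitor factor also known from leukemia.

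Values are the authors' normalized counts, and a difference was called at an adjusted p below 0.05 in limma with Benjamini-Hochberg adjustment over 13750 tested genes. Log2 fold changes are differences of mean log2(normalized count + 1) and are given with their SE. Between 17.1 and 20.4 M reads per library were recovered from the values. The libraries of the vector group were the most uneven, and replicate 2 was the lowest of that group for 8 of the 10 factors. Its mast cell and basophil markers summed to 72311 normalized counts, against 137975 and 88551 in replicates 1 and 3. In the KAT6A-NCOA2 group, replicate 1 was the highest for 8 of the 10 factors and replicate 3 the lowest for 7. Mast cell and basophil markers summed to 29250.5, 13430 and 11206 in replicates 1, 2 and 3 of that group. Mouse Ncoa2 ran from 1255 to 1384 normalized counts in the empty vector libraries, 1374 to 1400 with ETV6-NCOA2 and 1263 to 1421 with KAT6A-NCOA2, so the mouse gene does not tell the groups apart. The species of the fusion sequences is not given in the sources used here. Myeloid transcripts were abundant after this culture: monocyte and macrophage markers summed to between 207232 and 279102 normalized counts in every library, and the progenitor markers Kit and Cd34 were present in all 3 groups. In such bulk samples, fewer cells of a type and less RNA per cell cannot be told apart.

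The 10 factors did not move as one block. With KAT6A-NCOA2, Myb, Gata2, Gfi1 and Ikzf1 fell against empty vector and Sox4 rose. With ETV6-NCOA2, Myb fell and Lmo2 rose. Directly compared, Myb, Gata2, Gfi1 and Lmo2 were lower with KAT6A-NCOA2 than with ETV6-NCOA2. Gata1, Lyl1, Tal1 and Runx1 passed the test in no comparison.

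As counts, ETV6-NCOA2 against empty vector gave 1 of 10 factors higher, where 1.02% of all tested genes were higher, and 1 of 10 lower, where 1.82% were lower. KAT6A-NCOA2 against empty vector gave 1 of 10 higher against 11.6% of all tested genes, which is a share near the background. It gave 4 of 10 lower against 13.7% of tested genes. KAT6A-NCOA2 against ETV6-NCOA2 gave 4 of 10 lower against 2.84% of tested genes. In that comparison limma called 0 of 10 factors higher, where 0.247% of tested genes were higher. DESeq2 and edgeR also called 0 higher there, while 2 factors, Lyl1 and Sox4, were higher at an unadjusted p below 0.05. The libraries of the groups compared did not overlap for 6 factors with ETV6-NCOA2 against empty vector (21.5% of tested genes), 6 with KAT6A-NCOA2 against empty vector (42.9%) and 8 between the fusions (27.2%). The median log2 fold change of the 10 factors was -0.29 with ETV6-NCOA2, -0.29 with KAT6A-NCOA2 and -0.44 between the fusions, where the medians of all tested genes were 0.0089, 0.016 and 0.0061. Both comparisons with empty vector share the same 3 control libraries.

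**Figure D1:**
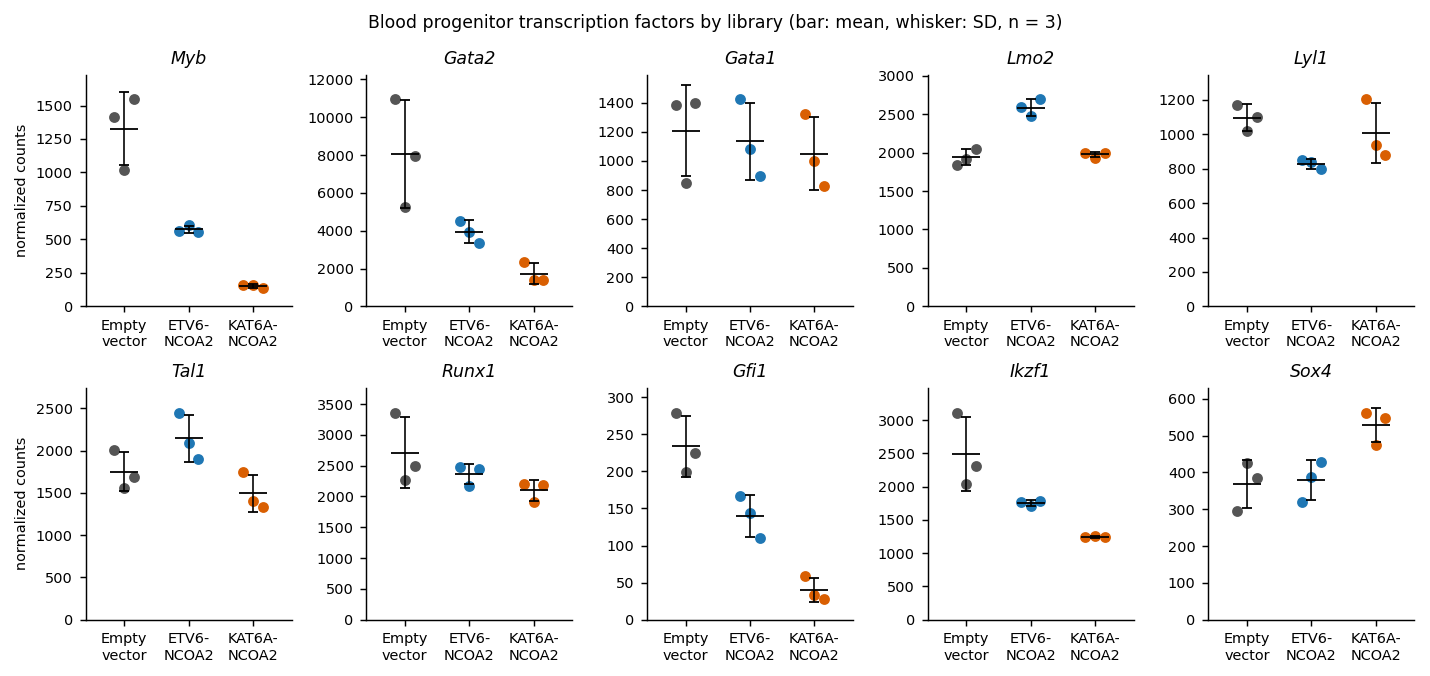
Normalized counts of the 10 factors (y axis, each panel on its own scale from 0) by group (x axis); each point is 1 library, the long bar is the mean and the whiskers are the SD (n = 3). The 3 groups of Myb, Gata2, Gfi1 and Ikzf1 step down from empty vector to ETV6-NCOA2 to KAT6A-NCOA2 with no overlap, Lmo2 is high in the ETV6-NCOA2 libraries and Sox4 in the KAT6A-NCOA2 libraries.

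**Figure D2:**
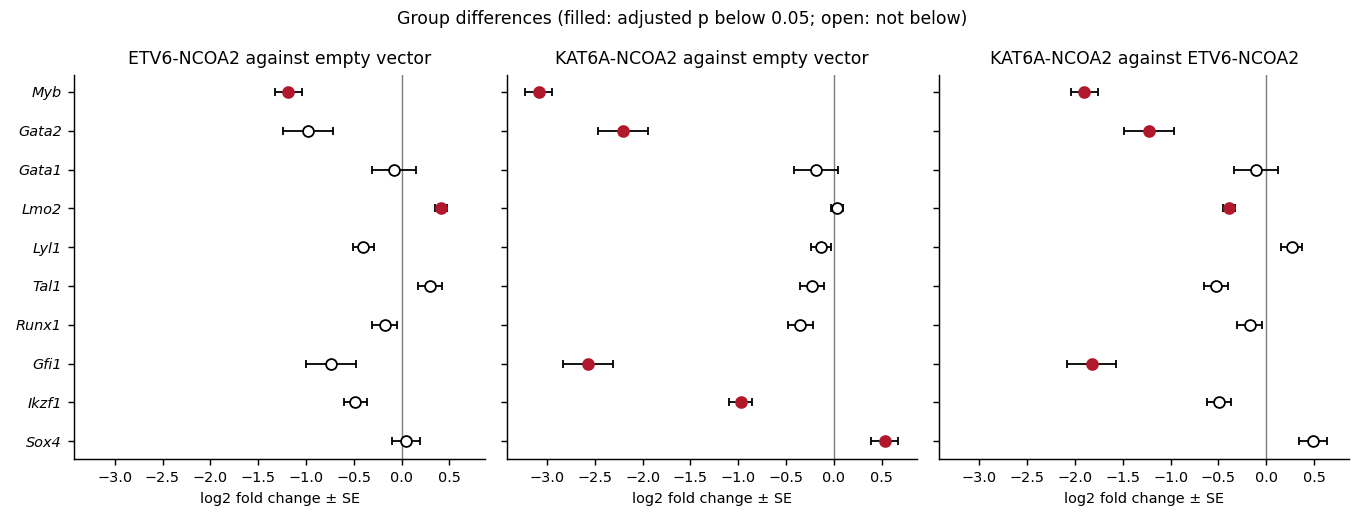
Log2 fold change with its limma SE (x axis) of each factor (y axis) in the 3 comparisons; filled points passed an adjusted p below 0.05 and open points did not. Myb is filled in all 3 panels, while Gata1, Lyl1, Tal1 and Runx1 are open in all 3.

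Myb, Gata2, Gfi1 and Ikzf1, 4 of the 10, stepped down in the order empty vector, ETV6-NCOA2, KAT6A-NCOA2 with no overlap between any of the groups. This order without overlap was found in 536 of the tested genes (3.9%).

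Myb (chr10:21124935-21160984, minus strand, GRCm38) encodes the c-Myb activator that keeps progenitors immature and dividing. In replicates 1, 2 and 3 of the empty vector group its level was 1418, 1020.5 and 1546 normalized counts. The ETV6-NCOA2 libraries had 561, 606 and 558, and the KAT6A-NCOA2 libraries had 162, 162 and 137. The lowest empty vector library was above every ETV6-NCOA2 library, and these were in turn far above every KAT6A-NCOA2 library. The log2 fold change was -1.18 ± 0.14 with ETV6-NCOA2 (limma adjusted p = 0.0050) and -3.09 ± 0.14 with KAT6A-NCOA2 (limma adjusted p = 4.39e-06). Between the fusions it was -1.90 ± 0.14 (limma adjusted p = 0.000173), so Myb was 3.74-fold lower with KAT6A-NCOA2 than with ETV6-NCOA2 and 8.5-fold lower than with empty vector. Myb was called in all 19 alternative analyses of each comparison, with log2 fold changes from -3.27 to -2.97 for KAT6A-NCOA2 against empty vector. The antisense transcript Gm26577 covers 6.26% of the exon bases of Myb and reached at most 7.1 normalized counts.

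The promoters of the 4 stepped factors are shown because these factors moved together. Each sequence is the RefSeq window of GRCm38.p6, from 250 bases before the start site to 50 bases from it, read 5′ to 3′ on the strand of the gene. Capitals mark letters found by a search on both strands for 7 motifs: the GATA-factor motif in its A form, with the letters AGATAA, the same motif in its T form, with the letters TGATAA, the E-box of Tal1 or Lyl1 with E proteins in a GC-centred form, spelled CAGCTG, the E-box in an AT-centred form, spelled CAGATG, the RUNX motif, spelled TGTGGT, the MYB motif, spelled AACNGTT, with N for any base, plus the ETS motif, spelled CGGAAG. No pair of matches overlaps in the member windows. The windows are chr10:21160935-21161234 (minus strand) for Myb, chr6:88198414-88198713 (plus strand) for Gata2, chr5:107724294-107724593 (minus strand) for Gfi1 and chr11:11685675-11685974 (plus strand) for Ikzf1.
Myb: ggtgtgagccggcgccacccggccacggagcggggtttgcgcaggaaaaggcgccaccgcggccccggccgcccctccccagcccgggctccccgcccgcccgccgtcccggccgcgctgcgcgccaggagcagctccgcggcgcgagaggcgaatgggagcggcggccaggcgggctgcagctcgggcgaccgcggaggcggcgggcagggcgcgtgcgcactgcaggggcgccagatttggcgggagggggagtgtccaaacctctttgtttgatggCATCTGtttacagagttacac
Gata2: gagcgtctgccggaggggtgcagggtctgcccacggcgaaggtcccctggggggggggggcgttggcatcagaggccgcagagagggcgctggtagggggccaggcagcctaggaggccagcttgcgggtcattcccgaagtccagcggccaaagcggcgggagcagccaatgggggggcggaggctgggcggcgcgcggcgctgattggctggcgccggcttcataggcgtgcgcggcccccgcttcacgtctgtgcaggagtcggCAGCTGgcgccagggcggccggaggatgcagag
Gfi1: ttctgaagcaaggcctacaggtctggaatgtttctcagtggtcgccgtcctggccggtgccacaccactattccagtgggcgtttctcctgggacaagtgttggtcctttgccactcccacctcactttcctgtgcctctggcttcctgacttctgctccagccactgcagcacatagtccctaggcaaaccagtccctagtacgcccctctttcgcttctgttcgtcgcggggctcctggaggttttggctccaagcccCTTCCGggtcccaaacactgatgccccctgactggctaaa
Ikzf1: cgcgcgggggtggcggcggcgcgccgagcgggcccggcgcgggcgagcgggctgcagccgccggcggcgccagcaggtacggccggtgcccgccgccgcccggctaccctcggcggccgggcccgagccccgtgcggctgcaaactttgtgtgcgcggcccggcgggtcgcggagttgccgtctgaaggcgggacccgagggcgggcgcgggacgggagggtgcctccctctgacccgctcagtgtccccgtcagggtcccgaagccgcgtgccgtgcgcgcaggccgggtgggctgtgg

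The Myb window holds 1 match, the E-box CAGATG on the opposite strand, and 75% of its bases are G or C. The Gata2 window holds the E-box CAGCTG, and the Gfi1 window holds the ETS letters CGGAAG on the opposite strand. None of the 7 motifs is in the Ikzf1 window, where 81.3% of bases are G or C. The other listed windows, number 1 for Gata2 and Gfi1 and number 2 for Ikzf1, held none of the 7 motifs. For Gata2 and Gfi1 the window shown is thus the one that holds a match. The 4 stepped factors therefore share no one motif in these windows.

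Gata2 (chr6:88193891-88207032, plus strand, GRCm38) encodes the GATA factor of stem cells, early progenitors and mast cells. Replicates 1, 2 and 3 of the empty vector group had 10943, 5274 and 7959 normalized counts. Those of ETV6-NCOA2 had 4539, 3945 and 3336, and those of KAT6A-NCOA2 had 2371, 1413 and 1385. The groups did not overlap, although the empty vector libraries differed among themselves by a factor of 2.07. Gata2 fell by 2.21 ± 0.26 on the log2 scale with KAT6A-NCOA2 (limma adjusted p = 0.00052), a 4.62-fold lower level. With ETV6-NCOA2 the log2 fold change of -0.98 ± 0.26 did not pass the test (limma adjusted p = 0.073). It was called in 4 of the 19 alternative analyses. DESeq2 (adjusted p = 0.038) and limma with the replicate number as a block (adjusted p = 0.0054) were among them. The log2 fold change also passed without empty vector replicate 2, the lowest library of its group, at -1.26 (limma adjusted p = 0.0088), and without KAT6A-NCOA2 replicate 1 (0.048). Without empty vector replicate 1, the highest, it was -0.73 (limma adjusted p = 0.26). Gata2 was lower with KAT6A-NCOA2 than with ETV6-NCOA2 by -1.23 ± 0.26 (limma adjusted p = 0.032). That call was lost in 6 of the 9 fits that leave out 1 library, namely without empty vector replicate 3, any ETV6-NCOA2 replicate or KAT6A-NCOA2 replicate 2 or 3, with adjusted p from 0.054 to 0.15.

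Gfi1 (chr5:107716657-107726036, minus strand, GRCm38) encodes a zinc finger repressor needed for neutrophils and for stem cell quiescence. It stood at 279, 199 and 225 normalized counts in replicates 1, 2 and 3 of the empty vector group, and at 166, 144 and 110.0 in those of ETV6-NCOA2. With KAT6A-NCOA2 it was down to 59.1, 33.6 and 28.1, the last of which rests on 24 reads. Every KAT6A-NCOA2 library was below every library of the other groups. Gfi1 fell by 2.57 ± 0.26 on the log2 scale with KAT6A-NCOA2 against empty vector (limma adjusted p = 0.00024), and by 1.83 ± 0.26 against ETV6-NCOA2 (limma adjusted p = 0.0050). For ETV6-NCOA2 against empty vector the log2 fold change was -0.74 ± 0.26 and did not pass (limma adjusted p = 0.14), although these groups did not overlap either. It was called in 2 of the 19 alternative analyses, DESeq2 (adjusted p = 0.039) and limma with the replicate number as a block (adjusted p = 0.026). The antisense transcript A430072P03Rik shares 3.17% of the exon bases of Gfi1 and reached at most 13.4 normalized counts.

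Ikzf1 (chr11:11685003-11772926, plus strand, GRCm38) encodes Ikaros, a zinc finger factor of lymphoid and early myeloid cells. Its empty vector libraries had 3110.4, 2039 and 2314 normalized counts in replicates 1, 2 and 3. With ETV6-NCOA2 they had 1763, 1708 and 1784, and with KAT6A-NCOA2 1241, 1257 and 1238. The fusion libraries were tightly grouped, with an SD of 39.2 and 10.6, against 556 in the vector group. Ikzf1 fell by 0.97 ± 0.12 on the log2 scale with KAT6A-NCOA2 (limma adjusted p = 0.00070). The difference of -0.48 ± 0.12 with ETV6-NCOA2 did not pass (limma adjusted p = 0.065). It did without empty vector replicate 2 (-0.62, limma adjusted p = 0.0071), while it was -0.31 without empty vector replicate 1 (limma adjusted p = 0.10). DESeq2 (adjusted p = 0.0079) and limma with the replicate number as a block (adjusted p = 0.027) called this fall too. Between the fusions, the log2 fold change of -0.49 ± 0.12 missed the threshold (limma adjusted p = 0.060). It was called with the replicate number as a block (limma adjusted p = 0.029) and without empty vector replicate 1 (0.0039) or 2 (0.016). DESeq2 (adjusted p = 0.014) and limma with only the 6 libraries compared (adjusted p = 0.0027) called it too.

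The members of the Tal1 complex did not follow this order. Lmo2 (chr2:103957986-103981878, plus strand, GRCm38), the bridging protein, had 1845, 1917 and 2049 normalized counts in empty vector replicates 1, 2 and 3. It had 2586, 2473 and 2692 with ETV6-NCOA2 and 1992, 1932 and 2001 with KAT6A-NCOA2. The ETV6-NCOA2 libraries were above all others, and the KAT6A-NCOA2 libraries lay within the range of the empty vector libraries. Lmo2 rose by 0.42 ± 0.06 on the log2 scale with ETV6-NCOA2 (limma adjusted p = 0.012), a 1.33-fold higher level, and the call was lost without ETV6-NCOA2 replicate 3 (0.39, limma adjusted p = 0.053). KAT6A-NCOA2 against empty vector gave 0.03 ± 0.06 (95% interval -0.11 to 0.17; limma adjusted p = 0.77). Lmo2 was lower with KAT6A-NCOA2 than with ETV6-NCOA2, at -0.39 ± 0.06 (limma adjusted p = 0.0097), and this call was lost without KAT6A-NCOA2 replicate 2 (-0.37, limma adjusted p = 0.057).

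Tal1 (chr4:115056426-115071755, plus strand, GRCm38), the helix-loop-helix factor at the centre of the complex, had 2004, 1557 and 1694 normalized counts in empty vector replicates 1, 2 and 3. The ETV6-NCOA2 libraries had 2451, 2097 and 1901, and the KAT6A-NCOA2 libraries had 1747, 1403 and 1337. The fusions did not overlap with each other, and both overlapped with empty vector. The log2 fold change between the fusions was -0.52 ± 0.13 and did not pass (limma adjusted p = 0.058), but with the replicate number as a block it did (-0.52 ± 0.066, limma adjusted p = 0.0019). It also passed without empty vector replicate 1 (0.039), empty vector replicate 2 (0.034) or KAT6A-NCOA2 replicate 1 (0.026). DESeq2 (adjusted p = 0.0097) and limma with only the 6 libraries compared (adjusted p = 0.039) called it too. Against empty vector it was 0.30 ± 0.13 with ETV6-NCOA2 (limma adjusted p = 0.23) and -0.23 ± 0.13 with KAT6A-NCOA2 (limma adjusted p = 0.22). Both were called with the replicate number as a block (limma adjusted p = 0.026 and 0.027).

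Lyl1 (chr8:84701457-84704715, plus strand, GRCm38), the relative of Tal1, ranged from 1018 to 1173 normalized counts in the empty vector libraries, from 798 to 851 with ETV6-NCOA2 and from 878 to 1203 with KAT6A-NCOA2. All ETV6-NCOA2 libraries were below all others. The log2 fold change with ETV6-NCOA2 was -0.40 ± 0.11 and did not pass (limma adjusted p = 0.074). It passed without empty vector replicate 2 (-0.46, limma adjusted p = 0.033) or KAT6A-NCOA2 replicate 1 (0.026). DESeq2 (adjusted p = 0.027) and limma with the replicate number as a block (adjusted p = 0.020) called this fall too. With KAT6A-NCOA2 the log2 fold change was -0.13 ± 0.11 (limma adjusted p = 0.39), and it was called without KAT6A-NCOA2 replicate 1 (-0.27, limma adjusted p = 0.044). Lyl1 and Lmo2 thus took their extreme values in the same group, on opposite sides.

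Gata1 (chrX:7959260-7978071, minus strand, GRCm38), the GATA factor of erythroid cells, megakaryocytes and mast cells, had 1383, 845 and 1398 normalized counts in empty vector replicates 1, 2 and 3. It had 1423, 1082 and 897 with ETV6-NCOA2 and 1324, 998 and 830 with KAT6A-NCOA2. The 3 groups overlapped, and each held 1 library at least 1.59 times another. The log2 fold change was -0.08 ± 0.23 with ETV6-NCOA2 (95% interval -0.59 to 0.43; limma adjusted p = 0.88) and -0.19 ± 0.23 with KAT6A-NCOA2 (95% interval -0.70 to 0.32; limma adjusted p = 0.58). Between the fusions it was -0.11 ± 0.23 (95% interval -0.62 to 0.40; limma adjusted p = 0.84). Within each replicate number the KAT6A-NCOA2 library was below the ETV6-NCOA2 library, and with the replicate number as a block the SE was 0.17 and the call did not change (limma adjusted p = 0.75).

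The exchange of Gata2 for Gata1 is a textbook step of erythroid and megakaryocyte maturation, so their ratio was taken within each library. Gata2 exceeded Gata1 by 7.91, 6.24 and 5.69 times in replicates 1, 2 and 3 of the empty vector group, by 3.19, 3.65 and 3.72 times in those of ETV6-NCOA2 and by 1.79, 1.42 and 1.67 times in those of KAT6A-NCOA2. The groups did not overlap, and the ratio varied less among the empty vector libraries than Gata2 itself did. On the log2 scale it was 2.71 ± 0.24 (SD, n = 3), 1.81 ± 0.12 and 0.69 ± 0.17. The differences were -0.90, -2.02 and -1.12 for ETV6-NCOA2 against empty vector, KAT6A-NCOA2 against empty vector and KAT6A-NCOA2 against ETV6-NCOA2. Each had a two-sided exact permutation p of 0.1, the smallest that 3 libraries against 3 can give. The ratio uses raw normalized counts of 2 genes of different length, so it is compared between libraries only.

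**Figure D3:**
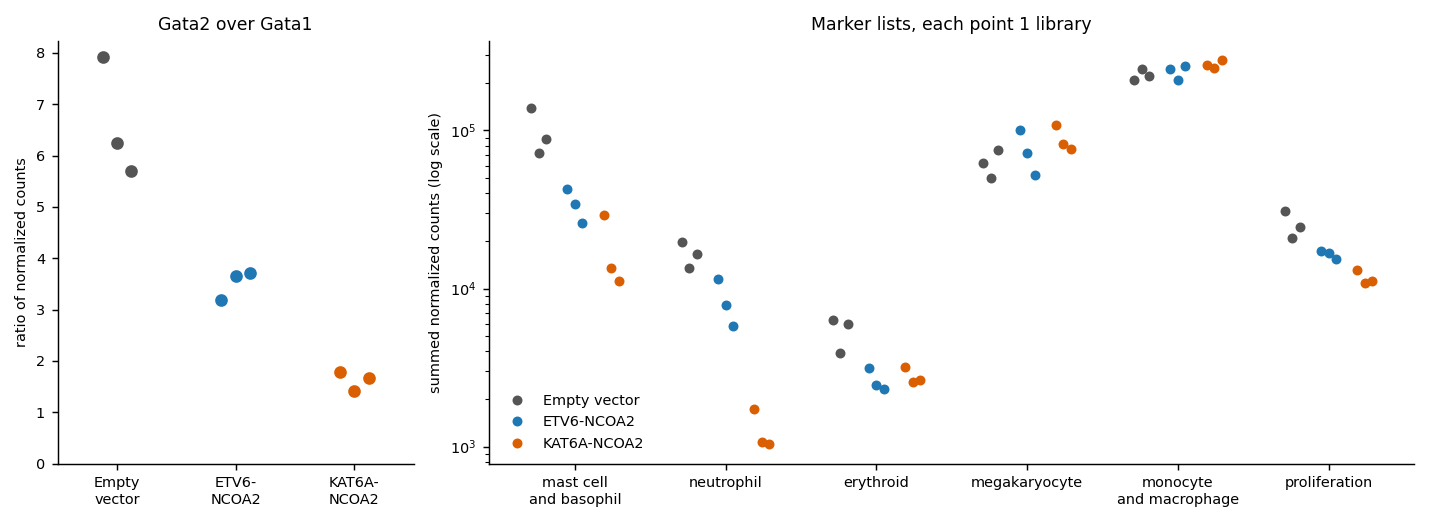
Left, the ratio of Gata2 to Gata1 normalized counts (y axis) by group; right, the summed normalized counts (y axis, log scale) of 6 gene lists; each point is 1 library, coloured by group. The Gata2 to Gata1 ratio steps down from 5.69 or more to 1.79 or less, and the neutrophil and proliferation sums step down too. The mast cell sums overlap between the fusions, and the monocyte and macrophage sums with KAT6A-NCOA2 (248612 to 279102) lie above those with empty vector (207232 to 243551).

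Runx1 (chr16:92601466-92826149, minus strand, GRCm38), which binds DNA with Cbfb, had 3361, 2267 and 2501 normalized counts in empty vector replicates 1, 2 and 3. It ranged from 2171 to 2478 with ETV6-NCOA2 and from 1903 to 2199 with KAT6A-NCOA2. The KAT6A-NCOA2 libraries were below all empty vector libraries, and the ETV6-NCOA2 libraries overlapped with both. The log2 fold change with KAT6A-NCOA2 was -0.35 ± 0.13 and did not pass (limma adjusted p = 0.071). DESeq2 (adjusted p = 0.039) and limma with the replicate number as a block (adjusted p = 0.015) called Runx1 lower there. The log2 fold change was -0.47 without empty vector replicate 2 and passed (limma adjusted p = 0.016), but -0.19 without empty vector replicate 1 (limma adjusted p = 0.23). With ETV6-NCOA2 it was -0.18 ± 0.13 (95% interval -0.47 to 0.11; limma adjusted p = 0.48). The distal Runx1 window, chr16:92826025-92826324 on the minus strand, held the MYB letters AACNGTT and the RUNX letters TGTGGT at a pair of places each, and is shown because no other member window holds either motif.
Runx1: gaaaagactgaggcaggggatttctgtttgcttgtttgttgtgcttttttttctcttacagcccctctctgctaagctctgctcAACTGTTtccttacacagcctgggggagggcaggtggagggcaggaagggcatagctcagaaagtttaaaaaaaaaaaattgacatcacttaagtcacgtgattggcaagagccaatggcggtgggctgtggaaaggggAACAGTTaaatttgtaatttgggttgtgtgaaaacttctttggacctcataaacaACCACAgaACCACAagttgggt

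Sox4 (chr13:28948919-28953713, minus strand, GRCm38), an HMG-box factor of early progenitors, had 296, 425 and 385 normalized counts in replicates 1, 2 and 3 of the empty vector group, and 321, 387 and 429 in those of ETV6-NCOA2. With KAT6A-NCOA2 it had 562, 475 and 547, above all libraries of the other groups. Sox4 rose by 0.53 ± 0.15 on the log2 scale with KAT6A-NCOA2 (limma adjusted p = 0.023), a 1.44-fold higher level. The call was lost without empty vector replicate 1 (limma adjusted p = 0.085), KAT6A-NCOA2 replicate 1 (0.066) or KAT6A-NCOA2 replicate 3 (0.082). Against ETV6-NCOA2 the log2 fold change of 0.49 ± 0.15 did not pass (limma adjusted p = 0.11), although it did without empty vector replicate 1 (0.048) or with only the 6 libraries compared (0.047). The long noncoding transcript Gm26735 lies on the opposite strand and covers 54.6% of the exon bases of Sox4. Whether the counting used strand is not given in the sources used here, so how reads over the shared bases were assigned is not known. Gm26735 is not among the genes with deposited values. The level of Sox4 per kb given below divides by all of its exon bases, shared ones included.

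Across the promoters of the other factors, matches were as sparse. RefSeq windows were found for 9 of the 10 factors, 14 windows in all. The A form of the GATA motif was in 1 of these windows, that of Tal1, compared with 11.2% of 32851 mouse promoter windows of the same length. Its T form was in 0 of the 14, compared with 9.05% of all windows. The GC-centred E-box was in 2 member windows, those of Gata2 and Sox4, compared with 16.3% of all. The AT-centred E-box was in 2, those of Tal1 and Myb, compared with 17.2% of all. The RUNX motif was in 1 member window (16.8% of all), the MYB motif in 1 (4.45% of all) and the ETS motif in 2, those of Gfi1 and Lyl1 (16.9% of all). These are matches of letters in a short window and no measure of binding.

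Compared per kb of exon, the order of the factors changed with the fusions. In the empty vector group Gata2 led with 1493 ± 525 normalized counts per kb (SD, n = 3), followed by Lmo2 with 894 ± 47.9 and Lyl1 with 609 ± 43.1. Gata1 (496 per kb), Ikzf1 (431) and Tal1 (400) followed, and Lyl1, Gata1, Ikzf1 and Tal1 each overlapped with the next in that order. Runx1 stood at 225 and Myb at 149 per kb, and Sox4 (76.9) and Gfi1 (73.5) came last and overlapped. With ETV6-NCOA2, Lmo2 led with 1193 ± 50.7 per kb, above Gata2 with 730 ± 112 and Tal1 with 491 ± 63.6 with no overlap between neighbours. Myb stood at 64.4 per kb there, overlapping with Sox4 at 79.0. With KAT6A-NCOA2, Lmo2 led with 912 ± 17.3 per kb, followed by Lyl1 (559), Gata1 (431), Tal1 (342) and Gata2 (319), and from Lyl1 to Gata2 each overlapped with the next. Gata2 was thus the first of 10 without fusion and the fifth with KAT6A-NCOA2. Sox4, at 110 ± 9.7 per kb, was above Myb at 17.2 ± 1.63 and Gfi1 at 12.6 ± 5.19, and these last overlapped.

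**Figure D4:**
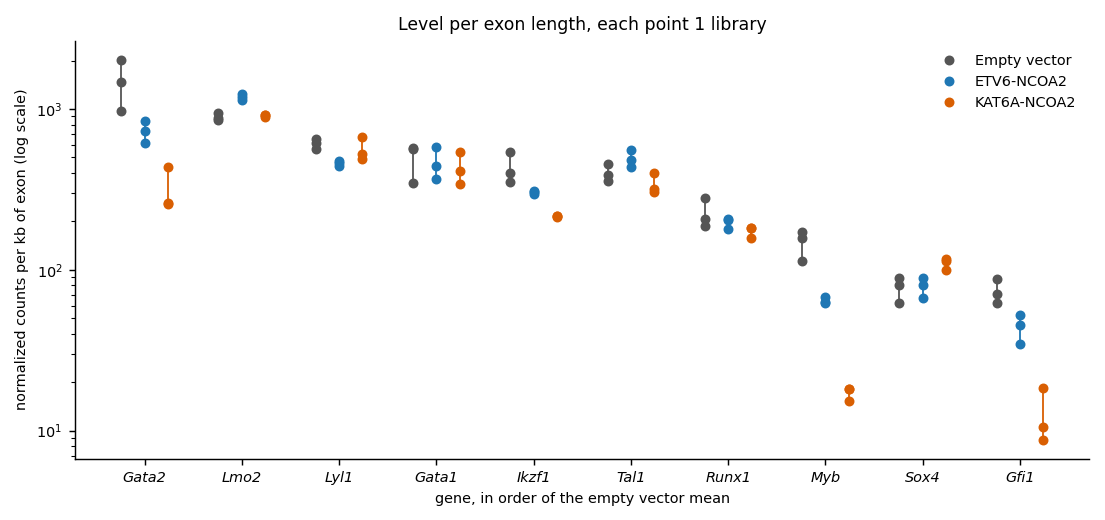
Level of each factor per kb of exon (y axis, normalized counts per kb of the union of annotated exons, log scale), in the order of the empty vector mean (x axis). Each point is 1 library and the line spans the group. Gata2 falls from the first place of the empty vector group to below Lmo2, Lyl1, Gata1 and Tal1 with KAT6A-NCOA2, and Myb and Gfi1 end at 17.2 and 12.6 per kb.

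For each factor, the 3 genes with the most similar profile over the 9 libraries were taken from 12335 tested genes, as the smallest root mean square difference of centred log2 values. No member was among the nearest 3 of another. Nearest to Myb was Tfr2, a transferrin receptor, at a difference of 0.17, with means of 162, 71.6 and 23.6 normalized counts in the empty vector, ETV6-NCOA2 and KAT6A-NCOA2 groups. Cd24a (0.21), a progenitor surface protein, and Chdh (0.22) followed. Around Gata2 lay Sh2d5 and Lbr (0.12 each) and St6galnac3 (0.13). Gfi1 was nearest to Tespa1 (0.20), Padi4 (0.21), an arginine deiminase of granulocytes, and Bpifc (0.22). The neighbours of Ikzf1 were Pmf1 (0.047), Tcf19 (0.056) and Mcm4 (0.071), a subunit of the replicative helicase that went from 1250 to 808 and 605 normalized counts.

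Tal1 was nearest to Adgrg1 (0.089), a surface receptor of stem cells, Meis1 (0.089), a homeobox factor of stem cells, and Six5 (0.093). Meis1 had means of 506, 575 and 431 normalized counts in the 3 groups. Gata1 lay nearest to Tmem40, Rgs18, a regulator of G-protein signals in megakaryocytes, and Plcb4 (0.10 each). The nearest to Lmo2 were Usp40 (0.058), Prkab1 (0.070) and Junb (0.082). Lyl1 lay nearest to Uqcc2 (0.098), Tmem261 (0.10) and Ppip5k2 (0.11), Runx1 to Wdtc1 (0.057), Polh (0.057) and Pom121 (0.075), and Sox4 to Rab3il1 (0.096), Cdkl2 (0.10) and Tmem243 (0.11). Such likeness is a description over 9 libraries that share their groups.

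Among paralogs of the factors, falls were found with KAT6A-NCOA2. Of 13 tested, 5 fell with KAT6A-NCOA2 against empty vector (13.7% of tested genes fell) and the other 8 did not pass, with a median log2 fold change of -0.47. Mybl2, the Myb relative of dividing cells, fell most, from 246 ± 82.6 to 62.6 ± 23.7 normalized counts (-1.97 ± 0.28, limma adjusted p = 0.0011). Ikzf2, Sox12 and Lmo4 fell by 1.22, 1.17 and 0.54 on the log2 scale, and Runx3 fell too. Lmo4 thus fell where Lmo2 did not pass, and Sox12 fell where Sox4 rose. With ETV6-NCOA2, 1 of the 13 fell, Ikzf2 (-0.91 ± 0.21, limma adjusted p = 0.048), where 1.82% of tested genes fell. Between the fusions 1 was lower with KAT6A-NCOA2, Runx3 (-0.41 ± 0.08, limma adjusted p = 0.019), where 2.84% of tested genes were.

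The next list held the partners that these factors need on DNA. Of 20 partners and cofactors, limma called 0 with ETV6-NCOA2 against empty vector, edgeR and DESeq2 also 0, and 4 had an unadjusted p below 0.05. With KAT6A-NCOA2, 5 fell (13.7% of tested genes fell) and 1, Tcf4, was called higher (11.6% of tested genes were), at 0.25 ± 0.08 (limma adjusted p = 0.046). edgeR called 0 higher there. The largest fall was that of Cbfa2t3, the ETO2 corepressor of the Tal1 complex, from 645 ± 160 to 277 ± 26.5 normalized counts (-1.19 ± 0.16, limma adjusted p = 0.00086). It was also lower than with ETV6-NCOA2 (-1.05 ± 0.16, limma adjusted p = 0.0070), the one call of the list in that comparison. Ssbp2 (-0.53), Hdac1 (-0.32) and Men1 (-0.30) fell less, as did Hdac2. Ldb1, the scaffold of the complex, had means of 1973, 1916 and 1830 normalized counts in the empty vector, ETV6-NCOA2 and KAT6A-NCOA2 groups and passed in no comparison. Cbfb, the partner of Runx1, had 1859, 1756 and 1868 and did not pass either. Id2, 1 of the 3 tested Id inhibitors of helix-loop-helix factors, had 8165, 7926 and 8320. For the Id genes limma, edgeR and DESeq2 called 0 in each comparison, and 0 had an unadjusted p below 0.05.

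Other blood regulators moved in both directions with KAT6A-NCOA2. Of 24 tested, 7 rose (11.6% of tested genes) and 9 fell (13.7%) against empty vector, with a median log2 fold change of -0.17 where that of all tested genes was 0.016. The largest falls were in Cebpe, a factor of late granulocytes, from 92.0 to 8.61 normalized counts (-3.48 ± 0.46), and Klf1, the erythroid factor, from 94.9 to 11.2 (-2.94 ± 0.34). Mecom (-2.68 ± 0.45) and Hlf (-1.95 ± 0.28), both stem cell regulators, also fell. Among those that rose were Spi1, Cebpb, Irf8 and Klf4. Between the fusions 3 were lower with KAT6A-NCOA2 (2.84% of tested genes were): Klf1 (-1.62 ± 0.34), Erg (-1.38 ± 0.15) and Hhex (-0.46 ± 0.08). For ETV6-NCOA2 against empty vector limma called 0 of the 24. There, 4 were higher and 7 lower at an unadjusted p below 0.05, for which no share over all tested genes was taken. edgeR called 4 lower, where it called 348 of the 13750 tested genes lower. DESeq2 called 4 higher and 6 lower, where it called 370 of all tested genes higher and 646 lower.

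The list of textbook targets of GATA factors held 15 tested genes. Of these, 7 fell with ETV6-NCOA2 (1.82% of tested genes fell) and 10 with KAT6A-NCOA2 (13.7%) against empty vector, and the others did not pass. The median log2 fold changes were -1.32 and -2.26. Prg2, an eosinophil granule protein, went from 165 ± 62.6 to 7.98 ± 3.7 and 8.89 ± 5.05 normalized counts with ETV6-NCOA2 and KAT6A-NCOA2. Hdc, the histamine-forming enzyme of mast cells and basophils, went from 21764 to 6231 with ETV6-NCOA2 (-1.82 ± 0.31). Fcer1a (-1.80 ± 0.38), of the IgE receptor, and Kel (-3.96 ± 0.65), of the red cell surface, fell there too. Kel was low, with means of 45.6, 2.70 and 2.81 normalized counts in the empty vector, ETV6-NCOA2 and KAT6A-NCOA2 groups. It was at 0 in at least 1 ETV6-NCOA2 library and passed the filter on low values only through the empty vector libraries. Rhag, an erythroid membrane protein, fell with KAT6A-NCOA2 from 195 ± 55.9 to 13.3 ± 2.47 (-3.76 ± 0.25, limma adjusted p = 3.25e-05). Between the fusions, 2 of the 15 were lower with KAT6A-NCOA2 (2.84% of tested genes were), Rhag (-1.99 ± 0.25) and Klf1. The list holds erythroid, mast cell and eosinophil genes, some of which are also in the marker lists below.

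Most textbook targets of Myb fell with both fusions. Of 10 tested, 6 fell with ETV6-NCOA2 (1.82% of tested genes) and 7 with KAT6A-NCOA2 (13.7%) against empty vector, with medians of -0.74 and -1.24. Kit, the receptor of SCF, which was in the culture, went from 3115 ± 596 normalized counts to 1230.3 ± 128 with ETV6-NCOA2 and 736 ± 229 with KAT6A-NCOA2. Mpo, the myeloperoxidase of granulocyte progenitors, went from 8853 to 2919 (-1.60 ± 0.19) and 584 (-3.95 ± 0.19). Elane, neutrophil elastase, went from 1611 to 106 with KAT6A-NCOA2 (-4.01 ± 0.32). Bcl2, the survival protein, fell with ETV6-NCOA2 from 856 to 488 (-0.81 ± 0.10). Between the fusions 3 were lower with KAT6A-NCOA2 (2.84% of tested genes were), Elane (-2.94), Prtn3 (-2.61) and Mpo (-2.35), all of them neutrophil granule genes.

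Targets of Runx1 and genes repressed by Gfi1 gave no common direction with KAT6A-NCOA2 against empty vector. Of 9 Runx1 targets, 2 rose (11.6% of tested genes) and 4 fell (13.7%) with KAT6A-NCOA2 against empty vector, with a median log2 fold change of 0.14. Csf2rb, the shared chain of the IL-3 receptor, rose (0.43 ± 0.12), as did Spi1, while Cd4 (-0.74 ± 0.21) fell beside Mpo, Elane and Itgal. Of 12 genes known to be repressed by Gfi1, 3 rose (11.6% of tested genes) and 2 fell (13.7%) with KAT6A-NCOA2 against empty vector, with a median of 0.075. Those that rose were Egr2, from 935 ± 263 to 1927 ± 308 normalized counts (1.07 ± 0.18, limma adjusted p = 0.0026), Csf1 (0.63 ± 0.14) and Irf8. Hoxa9 (-1.54 ± 0.28) and Egr1 (-0.70 ± 0.16) fell. With ETV6-NCOA2 against empty vector, limma called 1 of the 12 higher, where 1.02% of tested genes were. It was Egr2 (0.86 ± 0.18, limma adjusted p = 0.036), and limma called 0 lower. The median log2 fold change was 0.24 there. DESeq2 called 5 of the 12 higher and 1 lower, where it called 370 of all tested genes higher and 646 lower. Egr1, 1 of the 12, was lower with KAT6A-NCOA2 than with ETV6-NCOA2 (-1.31 ± 0.16), where 2.84% of tested genes were. Of the 9 Runx1 targets, limma called 1, Mpo, lower with ETV6-NCOA2 against empty vector (1.82% of tested genes were). Mpo and Elane, 2 of the 9, were called lower with KAT6A-NCOA2 than with ETV6-NCOA2 (2.84% of tested genes were).

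Markers of several cell types moved with the same factors. Mast cell and basophil markers summed to between 72311 and 137975 normalized counts in the empty vector libraries, 26117 to 42810 with ETV6-NCOA2 and 11206 to 29250.5 with KAT6A-NCOA2. Of 13, 8 fell with ETV6-NCOA2 (1.82% of tested genes fell) and 12 with KAT6A-NCOA2 (13.7%) against empty vector. The median log2 fold changes were -1.61 and -2.45, and none of the 13 was at 0 in any library. The largest falls were in Prss34, from 6368 to 413 and 303, and Mcpt8, from 5497 to 686 and 516. Between the fusions limma and edgeR called 0 of the 13, and 8 had an unadjusted p below 0.05. DESeq2 called 3 lower with KAT6A-NCOA2, where it called 633 of all tested genes lower. Gata2 and Kit are themselves expressed in mast cells, and the part of the mast cell markers in the fall of Gata2 was not tested.

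Neutrophil markers summed to between 13461 and 19626 normalized counts with empty vector, 5798 to 11559 with ETV6-NCOA2 and 1032 to 1729 with KAT6A-NCOA2. Of 10 tested, 3 fell with ETV6-NCOA2 (1.82% of tested genes fell) and 10 with KAT6A-NCOA2 (13.7%) against empty vector. Between the fusions, 8 were lower with KAT6A-NCOA2 (2.84% of tested genes were). These 8 included S100a9 and S100a8. S100a9 had means of 395, 1069.7 and 47.7 normalized counts in the empty vector, ETV6-NCOA2 and KAT6A-NCOA2 groups, and S100a8 had 404, 965 and 89.7. For ETV6-NCOA2 against empty vector the log2 fold changes of these calprotectin subunits were 1.33 ± 0.43 and 1.16 ± 0.30 and did not pass (limma adjusted p = 0.11 and 0.071). DESeq2 called 1 gene of the list higher, where it called 370 of all tested genes higher. The order of S100a9 and S100a8 over the groups thus differed from that of the sum. Ltf and Camp, both late granule genes, were at 0 in at least 1 KAT6A-NCOA2 library, and Camp also in at least 1 ETV6-NCOA2 library. The part of the neutrophil markers in the fall of Gfi1 and Myb was not tested.

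Erythroid markers summed to between 3924 and 6356.5 normalized counts with empty vector, 2326 to 3135 with ETV6-NCOA2 and 2545 to 3202 with KAT6A-NCOA2. Of 10 tested, 4 fell with ETV6-NCOA2 (1.82% of tested genes fell) and 7 with KAT6A-NCOA2 (13.7%) against empty vector. Car1 went from 481 ± 207 to 18.6 ± 8.02 and 45.4 ± 6.26. Megakaryocyte markers summed to between 49792 and 75277 with empty vector, 52104 and 100447 with ETV6-NCOA2 and 76165 and 108935 with KAT6A-NCOA2. Of 8, 1 was called with KAT6A-NCOA2 against empty vector and rose, a share near the background (11.6% of tested genes rose). It was Vwf, the clotting factor, which went from 5083 ± 400 to 8421 ± 930 (0.73 ± 0.10, limma adjusted p = 0.0010). Gata1, which passed in no comparison, is expressed in both of these lineages. Of 5 tested eosinophil markers, 3 fell and 1, Siglecf, rose with each fusion against empty vector. Ccr3 and Il5ra were not tested. Of all tested genes, 1.82% fell and 1.02% rose with ETV6-NCOA2, and 13.7% fell and 11.6% rose with KAT6A-NCOA2. Prg3 had means of 20.2, 1.36 and 1.43 normalized counts in the empty vector, ETV6-NCOA2 and KAT6A-NCOA2 groups, and Epx 35.6, 0.64 and 0.69. Both passed the filter on low values only through the empty vector libraries, so the count of falls cannot be set against these shares. DESeq2 called 1 marker lower with ETV6-NCOA2, where it called 646 of all tested genes lower.

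Proliferation genes summed to between 20782 and 31004 normalized counts with empty vector, 15398 to 17159 with ETV6-NCOA2 and 10906 to 13077 with KAT6A-NCOA2. Of 18, 10 fell with ETV6-NCOA2 (1.82% of tested genes fell) and 17 with KAT6A-NCOA2 (13.7%) against empty vector. Between the fusions, 5 were lower with KAT6A-NCOA2 (2.84% of tested genes were). Mcm3 went from 2264 ± 537 to 1362 ± 42.8 and 813 ± 105, and Tyms from 474 to 247 and 150 normalized counts. Myb, Ikzf1 and Mybl2 fell with KAT6A-NCOA2 too, and the part of proliferation in their fall was not tested.

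Monocyte and macrophage markers summed to between 207232 and 243551 normalized counts with empty vector, 209762 to 256725 with ETV6-NCOA2 and 248612 to 279102 with KAT6A-NCOA2. Of 14, 4 rose with KAT6A-NCOA2 against empty vector (11.6% of tested genes rose), Itgam and Cd14 among them. Ly6c2 and Ccr2, 2 of the 14, fell, a share near the background (13.7% of tested genes fell). Of 9 surface markers of stem and progenitor cells, 1, Kit, fell with KAT6A-NCOA2 against empty vector (13.7% of tested genes fell). Il7r (1.03 ± 0.22) and Procr (0.71 ± 0.21) rose there (11.6% of tested genes rose). Cd34 had means of 4740, 5037 and 4104 normalized counts in the empty vector, ETV6-NCOA2 and KAT6A-NCOA2 groups and passed in no comparison. The other cells that the sort could hold were scarce: T cell markers summed to at most 1133 normalized counts, B cell markers to at most 138 and NK cell markers to at most 679 in any library. Of these, the T cell sum was 554 or more in all empty vector libraries and at most 326 in the fusion libraries, through Thy1, which fell with both fusions (-3.01 and -3.19). Of 3 tested NK cell markers, Klrb1c and Eomes rose with ETV6-NCOA2 (4.24 ± 0.51 and 2.76 ± 0.58). Klrb1c had means of 4.70, 85.4 and 5.02 normalized counts in the empty vector, ETV6-NCOA2 and KAT6A-NCOA2 groups, and Eomes 2.15, 19.2 and 0.68. Both passed the filter on low values only through the ETV6-NCOA2 libraries. Their count therefore cannot be set against the 1.02% of tested genes that rose. Ncr1, Klrk1 and Prf1 were not tested, and DESeq2 called 1 marker higher there. Nkg7 fell with KAT6A-NCOA2 (-3.84 ± 0.26), where 13.7% of tested genes fell. B cell markers passed in no comparison, with 2 tested, limma, edgeR and DESeq2 each calling 0, and 1 with an unadjusted p below 0.05 for KAT6A-NCOA2 against empty vector. Stroma and endothelium markers summed to between 1626 and 2563. Of 6 tested, 1, Kdr, was higher with ETV6-NCOA2 (1.15 ± 0.20), where 1.02% of tested genes were. With KAT6A-NCOA2, 3 were lower against empty vector, where 13.7% of tested genes were. Dendritic cell markers summed to between 30377 and 60219. Of 8 tested, 3 rose with KAT6A-NCOA2 against empty vector, Itgax, H2-Aa and H2-Ab1 (11.6% of tested genes rose). Ccr7 and Clec10a, 2 of the 8, fell there (13.7% of tested genes fell).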

How the data were processed

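RNA of 9 libraries was measured, 3 per group. The deposited values are normalized counts, a signal that the authors scaled by 1 factor per library. Per the submitters' processing notes, tools included HTSeq, cutadapt, DESeq2 and STAR 2.4.2a on the GRCm38 build, in no stated order, and the strand setting is not given in the sources used here. All values (100%) were whole multiples of the worth of 1 read within 0.01 normalized counts, so reads were recovered. The lowest maximum of any gene was 5.22 normalized counts.

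Genes with at least 10 normalized counts in at least 3 libraries were tested (13750 of 17266) with limma 3.58.1 (lmFit, eBayes with trend, R 4.3.3) on log2(value + 1), with all 9 libraries in 1 fit and Benjamini-Hochberg adjustment. The fit was tested on simulated data. edgeR 4.0.16 on the recovered reads called 506, 3444 and 382 genes for ETV6-NCOA2 against empty vector, KAT6A-NCOA2 against empty vector and KAT6A-NCOA2 against ETV6-NCOA2, where limma called 390, 3488 and 425. Other alternatives were DESeq2 1.42.0, TMM or upper-quartile scaling, pseudocounts of 0.1 and 10, no filter or a minimum of 50, a replicate block, only 6 libraries, and each library left out. For a gene with 100 reads, counting error spans ± 19.6% at 95%, and this covers counting error only.

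The 10 factors, the 21 gene lists and the motifs were chosen with earlier results of these data known. Named are all 10 factors, of each list up to 4 called members with the largest change (or the one with the highest mean), and the 3 nearest genes, leaving out predicted and clone-named genes. Other genes are named where a count is spelled out. Counts cover whole lists, of which some genes are not reported here by name. Exon lengths came from GENCODE mouse release 21. Replicate numbers come from the titles. Over genes, the deviations of same-numbered libraries correlated at 0.301, 0.199 and 0.295 between the fusions for numbers 1, 2 and 3, so that comparison is also given with a replicate block, which called 983 genes against 425 without it. Authors' thresholds on a separate sheet were not used.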

Additional observations from a re-analysis of the deposited data

How the results depend on the processing

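Over the 10 factors, 3 comparisons and 19 alternatives, 519 values kept their direction and their side of the threshold, 32 became calls, 11 lost a call and 8 changed sign. Every change of sign came from leaving out 1 library, where the log2 fold change ran from -0.32 to 0.075 for Gata1 and from -0.11 to 0.16 for Sox4 with ETV6-NCOA2 against empty vector, from -0.0054 to 0.070 for Lmo2 with KAT6A-NCOA2 against empty vector, and from -0.29 to 0.066 for Gata1 between the fusions. None of these 4 was a call. With DESeq2, 1016 genes were called for ETV6-NCOA2 against empty vector and 793 between the fusions, and 5 factors were lower with ETV6-NCOA2. With the replicate block these became 1255 and 983 genes, with 2 factors higher and 5 lower for ETV6-NCOA2 against empty vector. There the same-number correlations were 0.313, 0.047 and -0.076, and those of unlike numbers ran from -0.236 to 0.254. For KAT6A-NCOA2 against empty vector the same-number correlations were 0.387, 0.172 and -0.029, and those of unlike numbers ran from -0.328 to 0.198. The labels do not say whether the numbers pair these groups, and correlations of this size cannot decide it. With the block, Tal1 (-0.23) and Runx1 (-0.35) were also called with KAT6A-NCOA2 against empty vector. With only the 6 libraries compared, 174 genes were called for ETV6-NCOA2 against empty vector and 823 between the fusions, with 1 factor higher between the fusions. Leaving out 1 library, the genes called ranged from 61 (without ETV6-NCOA2 replicate 2) to 1765 (without empty vector replicate 2) for ETV6-NCOA2 against empty vector. They ranged from 1779 (without empty vector replicate 1) to 4320 (without empty vector replicate 2) for KAT6A-NCOA2 against empty vector and from 163 (without KAT6A-NCOA2 replicate 2) to 913 (without empty vector replicate 2) between the fusions. Factors called higher ranged from 0 to 1 in each comparison, and factors called lower from 1 to 4, 4 to 5 and 2 to 6 in that order. The cause of these changes was not tested.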
